A study of Mus musculus with 77 samples.

Results

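The enhancers described here are 8464 of 44002 mouse enhancers in a deposited table, those that the authors placed in the stage class of preGM and GMP and for which they listed neither PU.1 nor CEBPA as a bound factor. They are called unbound preGM enhancers below, since all 8464 carry the authors' preGM flag and none carries the LSK or the granulocyte flag. Within them, 3072 enhancers (36.3%) also carry the GMP flag and 5392 (63.7%) do not, although the class is named for both stages. The criteria behind the stage classes, the flags and the binding calls are not given in the sources used here. Members were therefore chosen on the authors' own calls, which may rest on H3K4me1, PU.1 and CEBPA signal, and the values of those marks in preGM and GMP are given as a description. The same stage class holds 2577 enhancers with a PU.1 call only, 929 with a CEBPA call only and 813 with both, and these serve for comparison.

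All cells were sorted from mouse bone marrow. LSK cells were Lin-, Sca-1+ and sorted on ckit, which the labels list without a sign. The preGM cells were Lin-, Sca-1-, ckit+, CD150- and CD105-, and GMP were Lin-, Sca-1-, ckit+, CD150- and FcgRII/III+. Granulocytes were sorted as Mac1+Gr-1+ cells. These 4 populations were wild type, and preGM were also sorted from CEBPA KO mice. The labels do not give the mice's age or strain, the allele or the agent by which Cebpa was deleted, or whether the 2 libraries of a group came from separate animals. The table holds 1 value per enhancer and group, in 15 columns for 30 ChIP-seq libraries, so no difference below has a replicate check or a test. Depth is not given either, and counting precision is unknown.

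Enhancers are stretches of DNA away from a gene's start where transcription factors bind and raise transcription. H3K4me1 marks enhancers whether active or poised, and H3K27ac marks the active ones. PU.1, encoded by Spi1, and CEBPA are transcription factors that bind many enhancers of myeloid cells, and CEBPA is required for the step from preGM to GMP. An enhancer without a call for either factor may still be bound by others, such as RUNX1, MYB or GATA2, which were not measured here. In bulk populations a change in the mix of cells and a change within each cell cannot be told apart.

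The gene expression columns of the same table were used as a second readout. They were tied to the RNA groups by their names alone. The values of wild type preGM stand in 2 columns that differ gene by gene and in both directions. Hoxa9 was listed at 3012 in the stage column and 129 in the column paired with KO, and Cxcr2 at 48.9 and 570. The sources used here do not explain this difference. No gene is at 0 and the lowest value is 2.04. Expression was therefore compared only within the 4 stage columns or within the wild type and KO pair. Fcgr3, which encodes an Fc receptor of the GMP gate, was listed at 84.2 in preGM and 1262 in GMP. GMP were sorted for that receptor, whereas the markers given for preGM do not include it. Mmp9, a gelatinase of mature neutrophils, was listed at 30.1 in GMP and 6049 in granulocytes. Cebpa was listed at 208 in wild type and 48.3 in KO preGM. Spi1 was not in the table.

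The binding call follows 1 edge in the PU.1 values. None of the 31561 enhancers of the whole table without a PU.1 call reached a PU.1 signal of 3 in GMP (highest 2.999), whereas 10457 of the 12441 with a call did. The highest GMP value among the unbound preGM enhancers was 2.998, 49 of them lay between 2.9 and 3, and 96 called enhancers of the same stage class lay between 3 and 3.1. A call did not need that level, because 777 of the 3390 PU.1-called enhancers of the class were below 3 in GMP, the lowest at 0.503. No such edge held in preGM: 296 unbound preGM enhancers (3.50%), assigned to 279 genes, had a PU.1 signal of at least 3 there. The value 3 was chosen after the signals were seen.

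**Figure D1:**
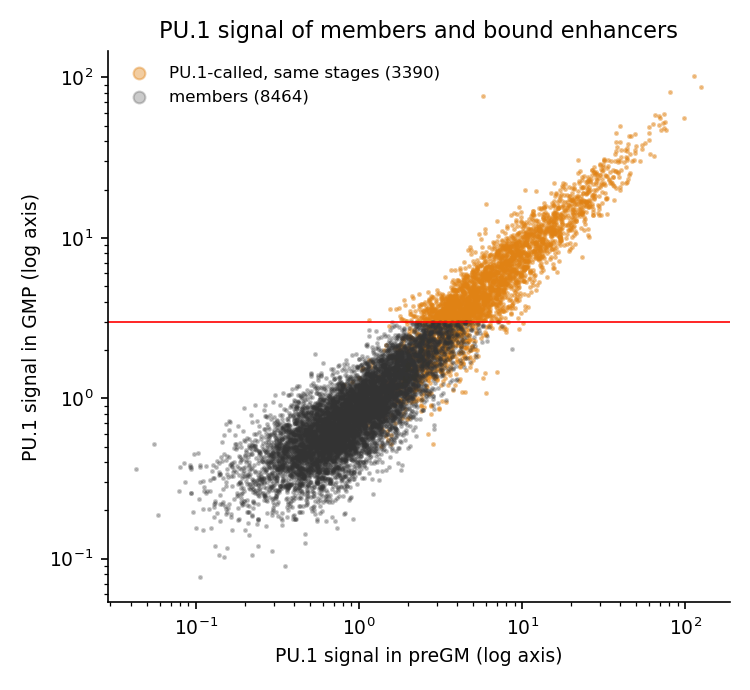
PU.1 signal in wild type preGM (x axis) and GMP (y axis), both on log axes in deposited units, 1 point per enhancer, for the 8464 unbound preGM enhancers and the 3390 PU.1-called enhancers of the same stage class. The horizontal line is a signal of 3, which no unbound enhancer reaches in GMP, while 296 reach it in preGM.

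These 296 enhancers had a median PU.1 signal of 2.24 in LSK, 3.53 in preGM, 2.38 in GMP and 2.26 in KO preGM. Since they were picked for a high preGM value, lower values elsewhere follow in part from the choice. KO preGM was below wild type preGM at 282 of the 296, and the share of all enhancers below wild type was not computed. The median log2 ratio of KO to wild type, with a pseudocount of 0.6, was -0.58 at the 296. It was -0.27 over the whole table and -0.60 at the PU.1-only enhancers of the class. The 296 made up 3.84% of the GMP-flagged and 3.30% of the other unbound preGM enhancers. The highest, at chr6:72204620-72204764 (mm9; all positions of enhancers are in this build, as deposited) and assigned to Atoh8, which encodes a bHLH transcription factor, read 6.33 in LSK, 8.71 in preGM, 2.04 in GMP and 8.16 in KO preGM. Its PU.1 signal was thus lowest in GMP, where the choice of members keeps values below 3. "Unbound" in this class accordingly does not mean free of PU.1 signal in preGM.

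Over all 8464, the median PU.1 signal was 0.912 in preGM and 0.772 in GMP, against 1.34 and 1.25 over the whole table. The median CEBPA signal in preGM was 0.467 against 0.534, with a highest value of 3.39. The PU.1-only enhancers of the same stage class had medians of 5.04 and 3.95 for PU.1. Members were chosen for lacking both calls, so these levels are a description.

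H3K4me1 was lowest in granulocytes. Its median signal was 3.49 in LSK, 3.32 in preGM, 3.59 in GMP and 2.65 in granulocytes, at the 54.9, 57.8, 44.4 and 20.7 percentile of the whole table. Enhancers that carry the LSK flag anywhere in the table had a median LSK signal of 5.50, and unflagged ones 2.93. The unbound preGM enhancers sat between them in LSK, and 817 of the 8464 were at or above the flagged median. Absence of an LSK flag therefore did not mean absence of the mark. The strongest case, at chr9:107208583-107208663 and assigned to Cish, a feedback inhibitor of cytokine receptors, had an H3K4me1 signal of 16.4 in LSK, 7.77 in preGM, 6.43 in GMP and 3.53 in granulocytes.

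The GMP flag followed H3K4me1 in GMP, with wide overlap. The median in GMP was 4.07 for flagged and 3.26 for unflagged unbound preGM enhancers, close to the 4.13 and 3.24 of flagged and unflagged enhancers in the whole table. Still, 1416 of the 5392 unflagged enhancers lay at or above that flagged median. In LSK both subsets had a median of 3.49. In granulocytes, which neither flag concerns, the medians were 3.32 and 2.21, so the flagged subset had more of the mark. Each of the 4 medians of H3K27ac was also higher in the flagged subset, at 0.920 against 0.890 in LSK, 0.900 against 0.815 in preGM, 1.13 against 0.886 in GMP and 0.823 against 0.718 in granulocytes.

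**Figure D2:**
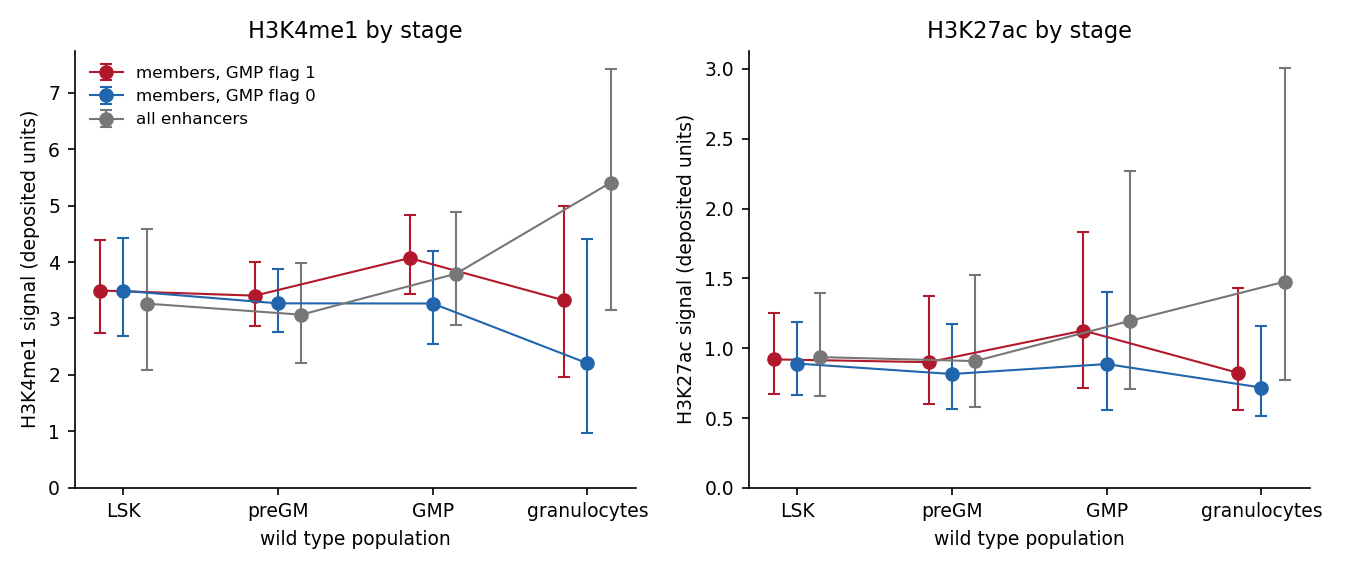
Median H3K4me1 (left) and H3K27ac (right) signal in deposited units over 4 wild type populations, for unbound preGM enhancers with the GMP flag (3072), without it (5392) and all 44002 enhancers. Bars span the quartiles of the enhancers, not replicates. In granulocytes the unbound preGM enhancers have medians of 3.32 and 2.21 for H3K4me1, and all enhancers lie higher.

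The 2 subsets also differed in width and place. Flagged enhancers had a median width of 174 bp and the others 226 bp. The nearest enhancer with a PU.1 or CEBPA call was a median of 3.07 kb from a flagged and 5.55 kb from an unflagged one, and 56.6% and 48.2% had such a neighbour within 5 kb. Members of 1 locus share their neighbours, so these are descriptions of the set. Whether an enhancer lies in an exon or an intron was not analysed here, and enhancer sequences are not printed.

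H3K27ac was compared as the log2 ratio of signal with a pseudocount of 0.7 added to both values, and a difference of at least 2-fold was counted. From preGM to GMP, 373 unbound preGM enhancers (4.41%) were at least 2-fold higher and 52 (0.614%) lower, with a median log2 ratio of 0.15. The background in the whole table was 9.21% higher and 0.411% lower, with a median of 0.29. Higher ratios were thus less frequent in the set than in the table. After subtracting the median of the whole table, 1.09% were higher and 3.31% lower (2.77% and 2.13% of all enhancers), so the balance of the 2 directions depends on that scaling. The higher ones were assigned to 351 genes and the lower ones to 45. Among GMP-flagged enhancers 177 of 3072 (5.76%) were higher and 20 lower, and among the others 196 of 5392 (3.64%) were higher and 32 lower. Their medians were 0.23 and 0.11. In the 971 genes that have unbound preGM enhancers of both kinds, the flagged ones had the higher mean ratio in 541 (55.7%), with a median difference within the gene of 0.06 (log2).

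**Figure D3:**
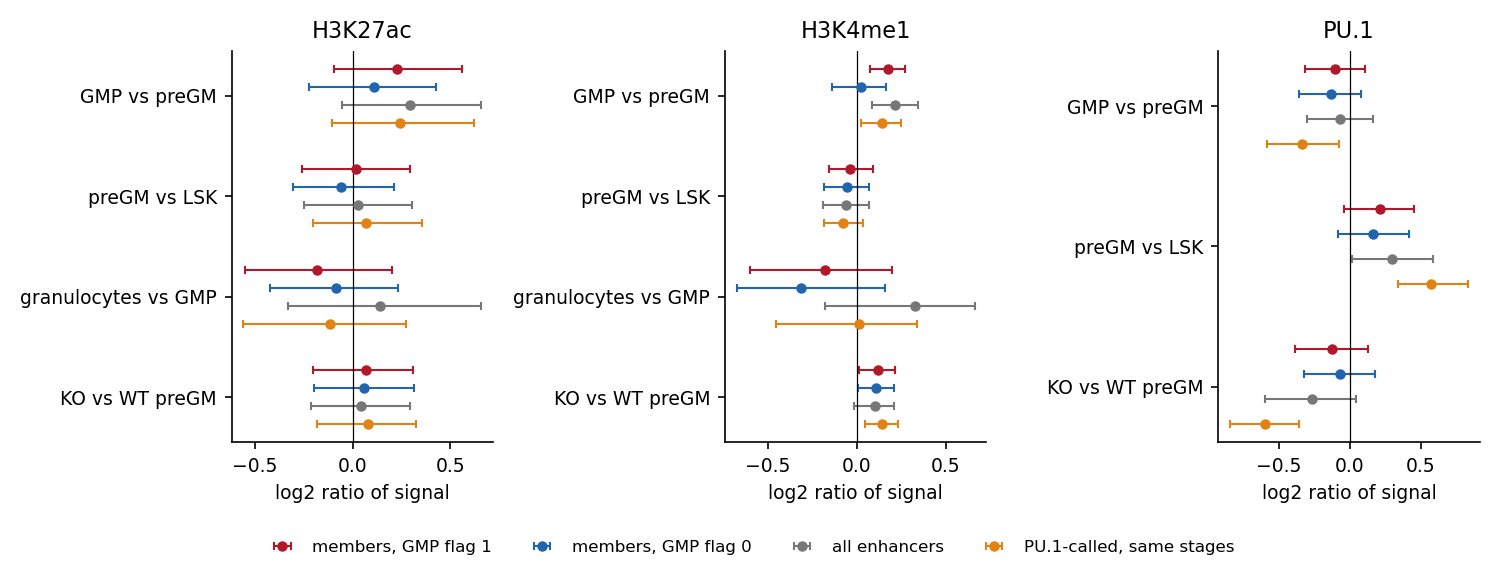
Median log2 ratio of H3K27ac, H3K4me1 and PU.1 signal (x axis) in each comparison (y axis; KO is CEBPA KO) for unbound preGM enhancers with and without the GMP flag, all 44002 enhancers and the 2577 enhancers of the same stage class with a PU.1 call only. Bars span the quartiles of the enhancers. The granulocyte ratios of both subsets lie below those of all enhancers, and the PU.1-called set has the lowest PU.1 ratio in KO, with a median of -0.60.

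Of the 6 highest ratios 3 lay at Mpo. This gene encodes myeloperoxidase, the enzyme of neutrophil granules that makes hypochlorous acid. All 5 of its unbound preGM enhancers were at least 2-fold higher in GMP, 3 of them with and 2 without the GMP flag. The enhancer at chr11:87612936-87613030 had an H3K27ac signal of 1.22 in LSK, 2.70 in preGM, 16.5 in GMP and 0.564 in granulocytes. That at chr11:87611717-87612035 read 0.633, 1.35, 15.05 and 0.321 in the same order. At chr11:87614218-87614367 the values were 1.26, 0.948, 12.3 and 0.550. Each of these was highest in GMP among the 4 populations. The other two peaked in GMP at 2.35 and 3.40. PU.1 signal at the 5 enhancers was at most 1.60 in GMP, and their median H3K27ac ratio of 2.34 stood beside 2.15 at the 4 bound enhancers of Mpo. Mpo expression was listed at 2312 in LSK, 10292 in preGM, 18647 in GMP and 1982 in granulocytes.

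The promoter of Mpo is shown because its 5 enhancers were higher together, and that of Flt3, described further on, for comparison. Both were chosen after the values were seen. The Mpo sequence covers the 250 bases before the start of Mpo on chromosome 11, + strand, chr11:87793534-87793783 from RefSeq in GRCm38.p6, a different build from that of the enhancers. Capitals mark GAGGAAGT, a sequence of the kind PU.1 binds, searched on both strands in the 250 bases before each start. It was in 2.44% of the 32851 promoters of that table. TTGCNNAA, of the kind C/EBP factors bind, was in 9.56% of them, and CAGCTG, an E-box, in 4271 of them. The letters of these 3 motifs do not occur within one another.

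Mpo: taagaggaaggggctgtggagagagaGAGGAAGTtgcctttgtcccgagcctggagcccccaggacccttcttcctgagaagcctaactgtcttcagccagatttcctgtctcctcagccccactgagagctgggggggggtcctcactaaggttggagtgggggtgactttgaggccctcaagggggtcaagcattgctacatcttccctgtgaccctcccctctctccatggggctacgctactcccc

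Flt3: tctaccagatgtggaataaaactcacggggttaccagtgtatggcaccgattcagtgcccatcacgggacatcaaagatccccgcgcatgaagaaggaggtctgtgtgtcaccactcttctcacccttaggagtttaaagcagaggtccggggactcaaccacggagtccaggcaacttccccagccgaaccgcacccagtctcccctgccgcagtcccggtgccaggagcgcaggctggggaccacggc

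The Flt3 window lies at chr5:147400490-147400739 on the - strand of the same build and holds none of the 3 motifs. The Mpo window holds the first motif once, beginning 224 bases before the start, and neither of the other two. A match is a match of letters, not a site.

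Cathepsin G, a serine protease of the same granules, has 1 unbound preGM enhancer, at chr14:56718680-56718723 with the GMP flag. Its H3K27ac signal was 0.580 in LSK, 1.49 in preGM, 8.54 in GMP and 0.911 in granulocytes, and 0.620 in KO preGM. The enhancer of Ms4a3, a membrane protein of granulocyte-monocyte progenitors, stayed between 0.518 and 0.704 in these 5 groups. Of the 7 genes listed as primary granule proteins, 6 were in the table and 3 had an unbound preGM enhancer, where 41.4% of all genes had any. Of their 7 enhancers, 6 were at least 2-fold higher in GMP and at least 2-fold lower again in granulocytes. Of all enhancers, 9.21% were higher in GMP and 6.05% lower in granulocytes. All but 1 of those 6 belong to Mpo.

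Other high ratios were at single enhancers. The enhancer of Alas1, the rate-limiting enzyme of haem synthesis, at chr9:106149368-106149540 had an H3K27ac signal of 0.892 in preGM, 10.7 in GMP and 5.82 in granulocytes. That of Cebpd, a C/EBP family factor, at chr16:15888169-15888539 read 1.78, 11.1 and 6.28. At Chd7, a chromatin remodeller, the enhancer at chr4:8617401-8617713 read 0.395, 4.08 and 11.9, the highest value being in granulocytes. None of the 3 carries the GMP flag. H3K4me1 at the Alas1 and Cebpd enhancers was lower in GMP than in preGM, at 2.96 against 4.27 and 2.88 against 3.72, while H3K27ac was higher.

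The highest H3K27ac level in GMP in each subset was at an enhancer that also had signal in LSK. At Dusp1, a phosphatase of MAP kinases, the enhancer at chr17:26645442-26645576 read 12.3 in LSK, 18.05 in preGM, 28.0 in GMP and 32.7 in granulocytes. At Ncor1, a nuclear receptor corepressor, the strongest enhancer without the GMP flag, chr11:62270425-62270958, read 7.98, 11.6, 22.2 and 10.8. Such levels were uncommon: 12.8% of the unbound preGM enhancers were at or above 2.27 in GMP, the 75th percentile of the whole table, 17.6% of the flagged and 10.1% of the others. The share was 30.0% for PU.1-only, 32.8% for CEBPA-only and 43.7% for doubly called enhancers of the same class.

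The lowest ratios of GMP to preGM included progenitor and lymphoid genes. Flt3 encodes the FLT3 ligand receptor of multipotent and lymphoid progenitors and has 8 unbound preGM enhancers. The enhancer at chr5:148211113-148211523 had an H3K27ac signal of 6.69 in LSK, 9.37 in preGM, 1.94 in GMP, 0.393 in granulocytes and 3.77 in KO preGM. It was high in LSK and preGM and lower in the other three. The remaining 7 were between 0.503 and 1.29 in GMP and none differed 2-fold. Close to the Flt3 enhancers, which begin at chr5:148176410, lay 2 enhancers assigned to Cdx2, a homeobox gene. Those at chr5:148152440-148152776 and chr5:148151935-148152093 read 4.86 and 2.74 in preGM and 0.914 and 0.501 in GMP. Flt3 and Cdx2 may thus not be separate examples. Cdx2 expression was listed at 16.1 in preGM and 18.2 in GMP, and that of Flt3 at 1894 and 146. Tox encodes an HMG-box factor of lymphoid cells, and all 4 of its enhancers in the table are unbound preGM enhancers. Each was at least 2-fold lower in GMP, from 1.53 to 2.38 in preGM to between 0.160 and 0.380. H3K4me1 at the same 4 was higher in GMP (4.58 to 5.48) than in preGM (3.22 to 3.87). The median of all enhancers was also higher in GMP, at 3.79 against 3.07.

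Of the 20 listed stem and multipotent progenitor genes, 19 were in the table and 16 had 66 unbound preGM enhancers, where 41.4% of all genes had any. Of the 66, 5 were at least 2-fold lower in GMP, at Flt3, Meis1, Mecom and Hoxa9 (2), and 1 was higher, at Kit, where 0.411% and 9.21% of all enhancers were. Mecom encodes a zinc finger factor of stem cells, Meis1 and Hoxa9 homeobox factors, and Kit the stem cell factor receptor. The median ratio of the 66 was 0.03, against 0.29 over the whole table. At Hoxa9 the enhancer at chr6:52179465-52179528 declined at each step, at 4.10 in LSK, 2.15 in preGM, 0.673 in GMP and 0.506 in granulocytes. The Kit enhancer at chr5:75977704-75978013 read 0.646, 0.386, 1.73 and 1.05.

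For 16 of 18 listed myeloid transcription factors in the table, 14 had 68 unbound preGM enhancers, with 3 at least 2-fold higher in GMP and 0 lower (median 0.14), near the 4.41% higher of the whole set and under the 9.21% of all enhancers. These were at Cebpd, Runx1 and Sox4. Runx1, a core haematopoietic factor, had 15 such enhancers and 1 of them, at chr16:92827678-92828368, went from 0.137 in preGM to 1.75 in GMP. Sox4, an HMG-box factor of progenitors, had 11, and 1 of them, at chr13:28850379-28850445, went from 0.547 to 3.11. Irf8, which directs monocyte and dendritic cell fate, had 10 and none differed 2-fold. Cebpa itself had 3, all without the GMP flag. The strongest of them, at chr7:35903351-35903662, had an H3K27ac signal of 0.896 in LSK, 2.94 in preGM, 4.34 in GMP, 0.916 in granulocytes and 5.81 in KO preGM. In KO preGM the H3K27ac value was thus above that of wild type, while Cebpa expression was lower.

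The other lists held few such differences, on the same background of 9.21% higher and 0.411% lower. Of all genes in the table, 41.4% had an unbound preGM enhancer. Of 17 monocyte and macrophage genes in the table, 8 had 27 unbound preGM enhancers, 18 of them at Ly86, and 0 differed 2-fold between preGM and GMP. Of 16 growth factor and cytokine receptors, 13 had 47, with 1 higher and 2 lower. Of 20 cell cycle genes, 9 had 22, and of 18 chromatin regulators, 13 had 25, with 0 past 2-fold in both lists. Among markers of other lineages, 7 of 9 megakaryocyte genes had 24 with 1 higher (Fli1), 3 of 5 erythroid genes had 8 with 0 past 2-fold, and 3 of 3 T and NK cell genes had 6 with 2 lower, both at Gata3. For B cells 3 of 4 genes had 4, for dendritic cells 4 of 5 had 5 and for mast cells, basophils and eosinophils 1 of 3 had 3, with 0 past 2-fold. Of 12 secondary granule and mature neutrophil genes in the table, 2 had 3 enhancers here. The choice of members bears on this, because enhancers with a granulocyte flag are not in the class. In preGM Pax5, which defines B cells, was listed at an expression of 15.1, under the pseudocount of 40 used for expression.

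Among the assigned genes were 2 host loci of microRNAs, chosen after their values were seen. Mirlet7b had 4 unbound preGM enhancers. The strongest, at chr15:85483709-85483791, read 3.04 in LSK, 6.79 in preGM, 10.1 in GMP and 3.44 in granulocytes, and the other three read between 0.976 and 5.83 in GMP. Mir17hg, host of the miR-17 to miR-92a cluster that promotes proliferation, also had 4. Their H3K27ac signal was at most 1.35 in every group and at most 0.606 in GMP, while H3K4me1 in preGM was between 1.66 and 5.19. MicroRNA levels were not measured. The mature sequences from RefSeq (GRCm38.p6) are shown to tell which seeds, bases 2 to 8 in capitals, these 2 loci encode.

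mmu-let-7b-5p: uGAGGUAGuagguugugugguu

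mmu-miR-17-5p: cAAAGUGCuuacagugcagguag

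mmu-miR-20a-5p: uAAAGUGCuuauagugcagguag

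mmu-miR-18a-5p: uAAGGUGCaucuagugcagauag

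mmu-miR-19a-3p: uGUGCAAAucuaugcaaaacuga

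mmu-miR-19b-3p: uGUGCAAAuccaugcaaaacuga

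mmu-miR-92a-3p: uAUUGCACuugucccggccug

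In the cluster, miR-17-5p and miR-20a-5p share a seed, as do miR-19a-3p and miR-19b-3p. The seeds of miR-18a-5p and miR-92a-3p stand alone, and let-7b-5p shares none of these.

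For the step from LSK to preGM, ratios of unbound preGM enhancers centred near 0. For H3K27ac 42 (0.496%) were at least 2-fold higher and 46 (0.543%) lower, on a background of 0.72% and 0.364%, with a median of -0.03. With a pseudocount 4 times smaller the shares were 2.89% and 5.79%, on a background of 3.77% and 5.07%. An enhancer of Brpf3, a subunit of histone acetyltransferase complexes, at chr17:28938156-28938863 read 1.70 in LSK, 6.43 in preGM and 8.98 in GMP. At Smo, the Hedgehog signal transducer, chr6:29685580-29685654 read 1.04, 3.64 and 3.48. An enhancer of Cbfa2t3, a transcriptional corepressor, at chr8:125238129-125238418 read 1.56, 0.183 and 0.494. For H3K4me1, with a pseudocount of 2, 0 enhancers of the set were past 2-fold in either direction, on a background of 0.00227% higher and 0.00682% lower. For PU.1, with a pseudocount of 0.6, 152 (1.80%) were higher in preGM and 1 lower, on a background of 6.56% and 0.0364%. After subtracting the table's median of 0.30, 0.26% were higher and 0.638% lower, against 2.20% and 0.6% of all enhancers. Among the higher ones was an enhancer of Tnfrsf1b, a TNF receptor, at chr4:144833312-144833545, with a PU.1 signal of 0.358 in LSK, 2.22 in preGM and 1.25 in GMP.

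PU.1 signal was at least 2-fold lower in GMP than in preGM at 78 unbound preGM enhancers (0.922%) and higher at 1, on a background of 0.775% lower and 0.768% higher. The choice of members limits the higher values, since enhancers above 3 in GMP carry a call. The 1 higher enhancer, at Msi2, an RNA-binding protein of stem cells, was at chr11:88469089-88469150, from 0.535 to 1.89. For H3K4me1 in the same step 4 enhancers were at least 2-fold higher and 0 lower, on a background of 0.855% and 0.00227%, with a median of 0.09 against 0.21. They were 2 at Ctdsp1, a phosphatase, and 1 each at Mtl5 and Sp2, a zinc finger factor, and none carries the GMP flag. At Ctdsp1 the enhancer at chr1:74442917-74442980 read 3.04 in preGM, 10.3 in GMP and 21.8 in granulocytes. These 4 had more H3K4me1 in GMP than 4.13, the median of GMP-flagged enhancers, yet no flag.

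In granulocytes the set was mostly lower than in GMP, while the table as a whole was mostly higher. For H3K4me1 97 unbound preGM enhancers (1.15%) were at least 2-fold higher and 454 (5.36%) lower, on a background of 9.69% higher and 2.81% lower. The median ratio was -0.26 against 0.32. After subtracting the latter, 0.177% were higher and 23.4% lower, against 3.43% and 10.2% of all enhancers. The choice of members bears on this, because enhancers with a granulocyte flag are not in the class. For H3K27ac 298 (3.52%) were higher and 510 (6.03%) lower, on a background of 14.1% and 6.05%, with medians of -0.12 and 0.14. Centred on the table, the shares were 2.76% and 8.78%, against 10.8% and 8.24% of all enhancers. Among flagged enhancers 8.14% were lower and among the others 4.82%. The PU.1-only enhancers of the class had 9.47% lower. Unbound enhancers of the LSK to GMP class had 11.1% lower for H3K4me1 (median -0.34) and 6.72% for H3K27ac (median -0.07). Those of GMP only had 3.38% (median -0.02) and 6.88% (median -0.08). Those of preGM to granulocytes had medians of 0.48 and 0.24. Medians below 0 were thus shared with unbound classes that do not name granulocytes.

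Of the 66 enhancers of the stem cell list, 8 were at least 2-fold lower for H3K27ac, where 6.05% of all enhancers were. For H3K4me1 10 were lower, where 2.81% of all were, and 0 were higher in either mark. At Hoxa9 an enhancer at chr6:52175293-52175367 had an H3K4me1 signal of 7.47 in GMP and 1.28 in granulocytes. Among all genes, Gse1, with 18 unbound preGM enhancers, gave the lowest H3K4me1 ratio, at chr8:122895916-122895974, from 6.38 to 0.622. Genes with lower H3K27ac included Slc16a1, a lactate transporter, at chr3:104442317-104442695 from 22.0 to 1.66, and Nr4a2, an orphan nuclear receptor, at chr2:56976217-56976620 from 19.6 to 2.05. The Mpo enhancers gave the 3 lowest H3K27ac ratios.

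A smaller group had more H3K27ac in granulocytes, among them enhancers of genes of mature cells. Il1r2, the decoy receptor for interleukin 1, has 1 unbound preGM enhancer, at chr1:40142081-40142211, which read 1.12 in LSK, 1.89 in preGM, 0.524 in GMP and 14.5 in granulocytes. Optn, an autophagy receptor, at chr2:4985180-4985293 read 0.932, 1.25, 1.67 and 22.4. Slc16a3, a lactate exporter, and Arg2, a mitochondrial arginase, went from 0.263 to 9.89 and from 0.261 to 8.55 between GMP and granulocytes. Of the 47 enhancers at receptor genes, 6 were higher and 1, the Flt3 one, lower, where 14.1% and 6.05% of all enhancers were. The 6 lay at Il1r2, Il4ra (2), Ifngr2, Tnfrsf1a and Tnfrsf1b. Both enhancers of Mmp9, a granule gelatinase, were higher, one at chr2:164774427-164774485 from 0.278 to 3.68. Expression of Il1r2 was listed at 46.3 in GMP and 1011 in granulocytes. These enhancers carry no granulocyte flag. For H3K4me1 the strongest value of the set in granulocytes was 24.1, at the second Ctdsp1 enhancer, chr1:74442493-74442737, and 848 of the 8464 enhancers were at or above 6.86, the median of granulocyte-flagged ones.

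**Figure D4:**
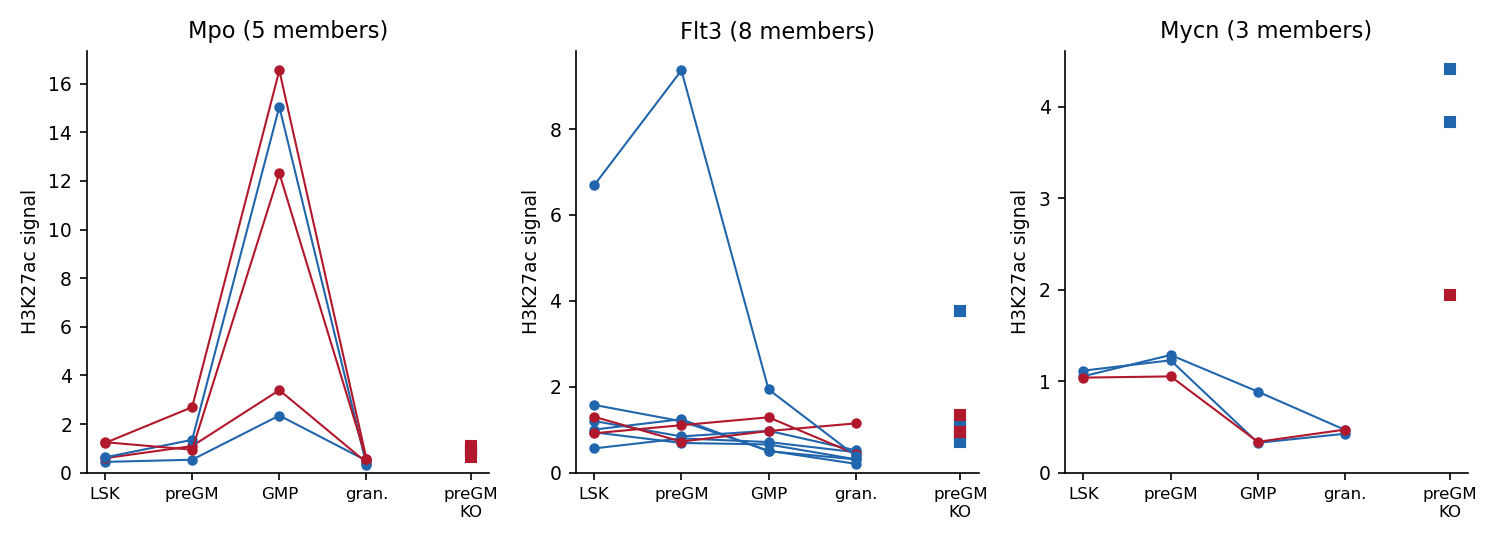
H3K27ac signal (y axis, deposited units, scales differ) of every unbound preGM enhancer of Mpo, Flt3 and Mycn in 4 wild type populations (circles joined by lines) and in CEBPA KO preGM (squares). Red marks enhancers with and blue those without the GMP flag. The Mpo enhancers peak in GMP at up to 16.5, 1 Flt3 enhancer is highest in preGM at 9.37, and Mycn enhancers are highest in KO preGM at up to 4.41.

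How many unbound preGM enhancers differed between CEBPA KO and wild type preGM depended on the pseudocount. The comparison shares the wild type preGM columns with the stage comparisons. In KO against wild type preGM, 43 (0.508%) were at least 2-fold higher and 27 (0.319%) lower in H3K27ac, on a background of 0.441% and 0.47%. With a pseudocount 4 times smaller these shares were 5.01% and 3.58%, on a background of 4.42% and 3.78%. The median ratio was 0.06 against 0.05 in the table. Centred on that median, 0.425% were higher and 0.473% lower (0.323% and 0.657% of all enhancers), so neither direction prevailed under both scalings. For H3K4me1 0 were past 2-fold, on a background of 0% higher and 0.00909% lower, and the median was 0.11. For PU.1 14 (0.165%) were higher and 86 (1.02%) lower, on a background of 0.0955% and 6.15%. The median was -0.09 against -0.27. The PU.1-only enhancers of the same class had 12.7% lower and a median of -0.60. After subtracting the table's median, 1.10% of the unbound preGM enhancers were higher and 0.118% lower in PU.1, against 0.725% and 1.99% of all enhancers. Low PU.1 signal limits how large a ratio can be, and whether that sets the difference from called enhancers was not tested.

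Of the 43 enhancers higher in KO 32 lacked the GMP flag, in a set of which 63.7% lacks it. The shares were 0.593% without and 0.358% with the flag. At Haao, an enzyme of tryptophan breakdown and the gene with the most unbound preGM enhancers (24), chr17:84306206-84306463 had an H3K27ac signal of 1.69 in wild type and 10.2 in KO preGM, with 1.44 in LSK and 1.53 in GMP. The other 23 were at most 2.94 in KO. Mta3, a subunit of a deacetylase complex, had an enhancer close to those of Haao, at chr17:84175100-84175286, that went from 1.02 to 3.85. Haao and Mta3 may thus not be separate examples. At Fibcd1, a chitin-binding receptor, chr2:31665404-31665516 went from 1.07 to 6.44 and chr2:31666416-31666635 from 0.726 to 3.68. The third, at chr2:31664760-31664822, read 1.06 and 0.989. Fibcd1 expression was listed at 47.7 in wild type and 48.4 in KO preGM.

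Mycn encodes N-myc, a proliferation factor of stem cells, and its 3 unbound preGM enhancers are at chr12:12947712-12947814, chr12:12948037-12948270 and chr12:12948675-12948922. Their H3K27ac signals in wild type preGM were 1.29, 1.23 and 1.05, and in KO preGM 4.41, 3.83 and 1.94 in the same order. LSK values were between 1.04 and 1.12, and GMP values between 0.327 and 0.886. KO preGM was the highest of the 5 groups at all 3, and 2 of them passed 2-fold. Their H3K4me1 was lower in KO (1.71 to 2.41) than in wild type (2.75 to 3.27). Mycn expression was listed at 106 in wild type and 158 in KO preGM. At Tox the 4 enhancers read between 1.53 and 2.38 in wild type and between 2.35 and 2.94 in KO. Tox expression was listed at 156 and 1084, although its wild type preGM value in the stage columns was 15.2.

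The 27 lower enhancers were at 27 genes. One at Mpo, chr11:87612936-87613030, went from 2.70 in wild type to 0.972 in KO preGM. The Flt3 enhancer described above was among them, from 9.37 to 3.77. An enhancer of Sp2 at chr11:96835207-96835548 went from 1.92 to 0.362, and its H3K4me1 from 3.18 to 1.24. At Plxnb2, a semaphorin receptor, chr15:89011929-89012058 went from 2.15 to 0.471. For Meis1, chr11:18862203-18862738 went from 2.00 to 0.532. The lowest PU.1 ratios were at Csrp1, a LIM protein, where chr1:137596542-137597125 went from 2.05 to 0.304, and at Klhdc5, where chr6:147047393-147047757 went from 3.92 to 0.974. At Ifngr2, an interferon gamma receptor chain, chr16:91523839-91524193 went from 2.48 to 0.511, and Ifngr2 expression was listed at 241 and 84.4.

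Several genes with much lower expression in KO preGM had similar H3K27ac at most of their unbound preGM enhancers. Ly86 encodes MD-1, a partner of the RP105 receptor on monocytes and B cells, and was listed at 768 in wild type and 51.7 in KO preGM. Its 18 unbound preGM enhancers had H3K27ac ratios between -0.78 and 0.74 with a median of 0.01, and 0 passed 2-fold. Its 19 bound enhancers had a median of 0.03. For PU.1 the medians were -0.12 and -0.63. Irf8 was listed at 299 and 84.8, and its 10 unbound preGM enhancers had a median H3K27ac ratio of -0.09. Flt3 was listed at 536 and 118. Of its 8, 1 passed 2-fold, as did 1 of its 7 bound enhancers, and the PU.1 medians were 0.11 and -1.03. Low signal limits these H3K27ac ratios. With the pseudocount of 0.7, an enhancer under 0.7 in wild type could not be counted as 2-fold lower. The median H3K27ac signal in wild type preGM was 0.677 at the 18 Ly86 enhancers and 0.773 at the 10 of Irf8. Whether H3K27ac was lost at the weaker ones was therefore not tested. These genes were chosen after their values were seen.

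The 8464 enhancers were assigned to 4182 of the 10096 genes in the table. A single unbound preGM enhancer was assigned to 2435 of them, and the most were 24 at Haao, 23 at Smad7, an inhibitor of TGF-beta signalling, and 21 at Ptpre, a tyrosine phosphatase. Of the 4182 genes, 2825 (67.6%) also had an enhancer with a PU.1 or CEBPA call, against 69.1% of all genes. Being near an unbound preGM enhancer was thus not the same as lacking bound ones.

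Among these genes more were lower than higher in GMP. With a pseudocount of 40, 98 (2.34%) were at least 2-fold higher in GMP than in preGM and 194 (4.64%) lower, on a background of 2.86% and 2.89% of all genes. Genes that had only unflagged enhancers of the set gave 38 higher and 101 lower of 2123, and genes that had only flagged ones 38 higher and 29 lower of 1088. Those with both gave 22 and 64 of 971. Lower genes thus outnumbered higher ones except among genes with flagged enhancers only.

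In the 321 genes with 5 or more unbound preGM enhancers, a number chosen after the values were seen, 4 (1.25%) were higher and 37 (11.5%) lower. Of 2845 genes with 5 or more enhancers of any class 4.53% were higher and 5.13% lower. Of 868 genes with 5 or more enhancers and none of the set, 8.41% were higher and 2.07% lower. The 37 included Dntt, the terminal transferase of lymphoid progenitors, with 8 enhancers, all unflagged, and an expression of 5375 in preGM and 41.2 in GMP. Meis1 had 11 and went from 797 to 88.6. Cd34, a surface sialomucin of progenitors, had 6 and went from 3362 to 603. Lmo2, a LIM-domain partner of GATA and TAL1 factors, had 11 and went from 4291 to 1366, and Sox4 went from 1454 to 326. The 4 higher genes were Mgst2, a glutathione transferase of leukotriene synthesis (342 to 1522), Rhob, a small GTPase (303 to 759), Asap1 (193 to 449) and Ly86 (961 to 1974). Of the 16 listed stem cell genes with an unbound preGM enhancer, 10 were lower and 0 higher, against 2.89% and 2.86% of all genes. The list holds stem and multipotent progenitor genes, so lower values in GMP may follow from the list rather than from the set.

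H3K27ac of the enhancers leaned the same way as expression, by little, and this was also so over all enhancers of the table. For each gene the median H3K27ac ratio of its unbound preGM enhancers was taken. In GMP against preGM it was above 0 at 74.5% of the 98 genes with higher, 66.3% of the 3890 with similar and 51.5% of the 194 with lower expression, with medians of 0.22, 0.18 and 0.02. Over all enhancers of all genes the medians were 0.47, 0.36 and 0.12. From GMP to granulocytes the split was wider. There 535 genes (12.8%) were higher and 763 (18.2%) lower in expression, on a background of 11.4% and 18.9%. The H3K27ac medians were 0.20, -0.10 and -0.28, and 67.3%, 42.2% and 26.9% of genes were above 0. Over all enhancers of all genes the medians were 0.61, 0.03 and -0.33, so the split was not particular to the set. For H3K4me1 the medians were 0.15, 0.11 and 0.03 in GMP against preGM, in the order of expression, and 0.08, -0.25 and -0.18 in granulocytes against GMP, which was not. At Dntt the median H3K27ac ratio in GMP was -0.43, and at Lmo2 it was 0.20.

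**Figure D5:**
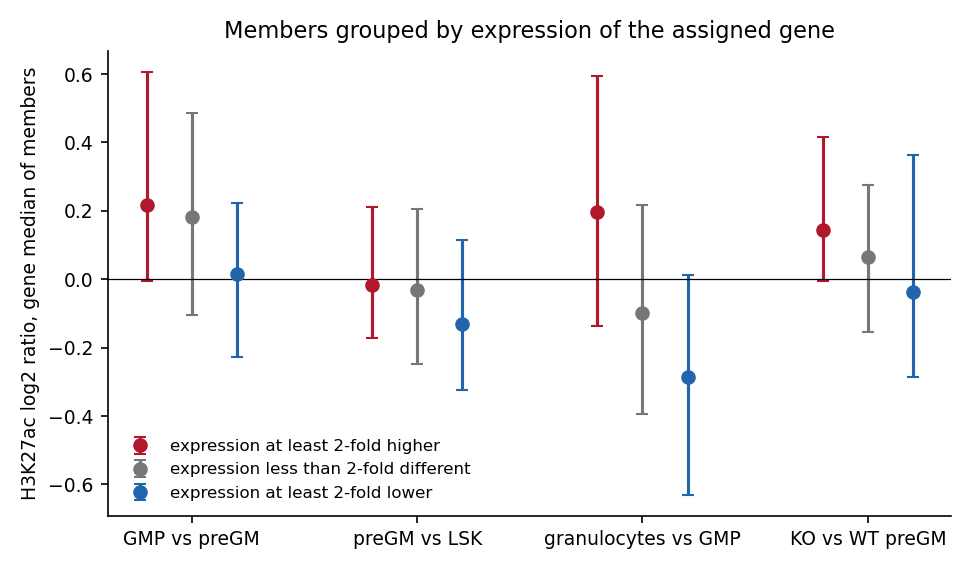
Log2 ratio of H3K27ac (y axis, median over the unbound preGM enhancers of a gene) for genes whose expression was at least 2-fold higher, less than 2-fold different or at least 2-fold lower in the same comparison (x axis). Points are medians over genes and bars the quartiles of genes. In granulocytes against GMP the medians are 0.20, -0.10 and -0.28.

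From LSK to preGM 70 genes (1.67%) were higher and 48 (1.15%) lower, on a background of 1.61% and 0.802%. The lowest were immediate early genes, which respond quickly to stimulation, with Fos at 9706 in LSK and 110 in preGM and Egr1 at 2589 in LSK. In KO against wild type preGM 21 (0.502%) were higher and 22 (0.526%) lower, on a background of 0.277% and 0.406%. The lowest were Ctsg (2096 to 190) and Ms4a6c (1218 to 98.7), a membrane protein of monocytes. Among the higher ones were Tox, Clec4e, a C-type lectin of myeloid cells (396 to 1254), and Ifitm1, an interferon-induced membrane protein (1738 to 4670). The 21 and 22 genes gave median H3K27ac ratios of 0.14 and -0.04, against 0.22 and -0.07 over all enhancers of the 28 and 41 genes of the whole table.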

How the data were processed

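The table was deposited by the authors with 1 signal value per enhancer and group for ChIP-seq and 1 expression score per gene. The sources used here do not say how libraries were pooled or scaled. Per the submitters' processing notes, the ChIP-seq tools were Bowtie2, bedtools and MACS2 and the RNA-seq tools DESeq2, STAR and featureCounts, on mm9, without versions. Of 77 samples, 30 ChIP-seq libraries in 15 groups lie behind the columns used, matched by column name, and 11 value columns were not used.

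Log2 ratios were computed in Python 3.11.15 with pandas 2.3.3 and numpy 2.4.6, after adding the 25th percentile of the assay's values, rounded to 1 significant digit: 0.7 for H3K27ac, 2 for H3K4me1, 0.6 for PU.1 and 40 for expression. Differences of at least 2-fold were counted, with no test, since no column has a replicate. In simulated data, with folds planted on above-median preGM values, all 4-fold increases were recovered, and 50% to 93% of 4-fold decreases by assay. Those decreases end at low signal, where the pseudocount weighs more, so the simulation does not tell which direction is undercounted here. Its pass criterion was loosened after failures. Genes are the table's own assignment.

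The enhancers, the gene lists and the rule for names were chosen with earlier results of these data known. The rule took, per comparison, the 6 highest and 6 lowest ratios among enhancers past 2-fold with at least the set's median signal in the higher group (for expression, genes past 2-fold whose larger value was at or above the median level), the 10 genes with the most enhancers, the strongest GMP H3K27ac values and members of the lists. The 14 lists cover stem cell genes, myeloid factors, granule, monocyte, receptor, cell cycle and chromatin genes and 6 other lineages. Other loci were picked once the values were known. Alternatives were other pseudocounts, a filter, centring, 1 enhancer per gene and a low-factor subset.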

Additional observations from a re-analysis of the deposited data

How the results depend on the processing

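Shares of the unbound preGM enhancers, or of their genes, at least 2-fold higher or lower depended most on the pseudocount; the cause was not tested. Values that moved by over 1.5 times from those of the report follow, with directions not listed having moved by less. With a pseudocount 4 times smaller, for H3K27ac the shares were 12.8% higher and 4.78% lower in GMP against preGM, 2.89% higher and 5.79% lower in preGM against LSK, 7.4% higher and 14.2% lower in granulocytes against GMP, 5.01% higher and 3.58% lower in KO against wild type preGM. All 44002 enhancers then had 19.8% and 3.17%, 3.77% and 5.07%, 22% and 11%, and 4.42% and 3.78%, in the same order. For H3K4me1 the shares were 0.0945% higher and 0.224% lower in GMP against preGM, 0.154% higher and 0.0236% lower in preGM against LSK, 2.61% higher and 27.4% lower in granulocytes against GMP, 0.0473% lower in KO against wild type preGM. All enhancers had 5.77% and 0.0977%, 0.177% and 0.0636%, 17.8% and 11.1%, and, for KO, 0.166% lower. For PU.1 the shares were 0.898% higher and 4.66% lower in GMP against preGM, 8.31% higher and 1.37% lower in preGM against LSK, 2.66% higher and 5.19% lower in KO against wild type preGM. All enhancers had 2.6% and 2.53%, 13.3% and 1.25%, and 1.85% and 12%. For expression the shares were 2.73% higher in preGM against LSK, 0.765% higher in KO against wild type preGM. All genes had 2.58% and 0.396%. With one 4 times larger, for H3K27ac the shares were 0.39% higher and 0.0236% lower in GMP against preGM, 0.0118% higher and 0% lower in preGM against LSK, 0.851% higher and 0.957% lower in granulocytes against GMP, 0.0236% higher and 0% lower in KO against wild type preGM. For H3K4me1 the shares were 0% higher in GMP against preGM, 0.0354% higher and 0% lower in granulocytes against GMP. For PU.1 the shares were 0% higher and 0.0118% lower in GMP against preGM, 0% higher and 0% lower in preGM against LSK, 0% higher and 0% lower in KO against wild type preGM. For expression the shares were 0.956% higher and 2.18% lower in GMP against preGM, 0.837% higher and 0.646% lower in preGM against LSK, 11.9% lower in granulocytes against GMP, 0.239% higher and 0.239% lower in KO against wild type preGM. With the median of the whole table subtracted, for H3K27ac the shares were 1.09% higher and 3.31% lower in GMP against preGM (2.77% and 2.13% of all enhancers). For H3K4me1 the shares were 0.0236% higher in GMP against preGM, 0.177% higher and 23.4% lower in granulocytes against GMP. All enhancers had 0.205%, and 3.43% and 10.2%. For PU.1 the shares were 0.26% higher and 0.638% lower in preGM against LSK, 1.1% higher and 0.118% lower in KO against wild type preGM. All enhancers had 2.2% and 0.6%, and 0.725% and 1.99%. With the larger pseudocount and the settings that follow, shares of all enhancers were not computed, so those shares describe the set alone. With a filter on the mean signal at the 25th percentile, for H3K27ac the shares were 6.73% higher in GMP against preGM, 0.763% higher in preGM against LSK, 5.4% higher and 9.29% lower in granulocytes against GMP. For PU.1 the shares were 0.0179% higher and 1.4% lower in GMP against preGM, 0% lower in preGM against LSK, 0.0894% higher in KO against wild type preGM. With a pseudocount of 0.6 for H3K27ac, chosen after seeing the data, for H3K27ac the shares were 0.992% lower in GMP against preGM, 0.874% lower in preGM against LSK, 0.532% lower in KO against wild type preGM. Among enhancers with low PU.1 and CEBPA signal in preGM, for H3K4me1 the shares were 0.0256% higher in GMP against preGM. For PU.1 the shares were 0.0256% higher and 0.0256% lower in GMP against preGM, 0.307% higher and 0.0256% lower in preGM against LSK, 0.102% lower in KO against wild type preGM. With 1 enhancer per gene, for H3K4me1 the shares were 0.0717% higher in GMP against preGM, 1.79% higher in granulocytes against GMP. For PU.1 the shares were 0% higher and 1.46% lower in GMP against preGM, 0.0239% lower in preGM against LSK. Of 138 named ratios, 64 were under 2-fold with the larger pseudocount and 2 with the median subtracted, and none changed direction under these or with the smaller pseudocount. No paired analysis was possible because the columns used hold 1 value per group and carry no replicate number, so no replicate could be left out either. The depth behind the values is unknown.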
